A study of Mus musculus with 2 samples.

Results

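The noncoding RNAs described here are 7 host transcripts of small nucleolar RNAs, Gas5, Snhg1, Snhg3, Snhg5, Snhg6, Snhg8 and Snhg12, and the nuclear RNAs Malat1 and Neat1. They were taken by symbol and Entrez identifier from the probe sets that the array annotation names for 1 gene only. All 9 genes were found, among 18193 genes measured, with 25 probe sets in all. Of these probe sets 23 were expressed, meaning that the mean of log2(intensity + 16) over both arrays was at or above 5.64, the median of all probe sets. Messenger RNA levels had been compared between neutrophils grown from bone marrow progenitors of male wild-type C57BL/6 mice and of male mir-223 knockout mice of the same strain. Cultures of both genotypes grew for 6 days with SCF, the ligand of the receptor Kit, and G-CSF, which promotes the formation of granulocytes, and received cycloheximide, an inhibitor of translation elongation, at 100 ug/ml during the final 8 min. Total RNA of each genotype was hybridised to 1 Affymetrix 3' array. The labels do not say how the deletion was made or how many mice gave cells to an array.

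With 1 array a genotype there was no replicate, no test was possible, and every difference below compares these 2 arrays. Differences are knockout minus wild type on the log2(intensity + 16) scale, which understates the change of dim probe sets. The only spread at hand was that among expressed probe sets of 1 gene, an SD of 0.14 pooled over 5017 genes, which is not a replicate error. A culture without cycloheximide was not analysed here, so no value shows what the inhibitor did to these RNAs.

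Small nucleolar RNAs guide the chemical modification of ribosomal RNA and are cut out of introns of longer host transcripts. Host genes of the Snhg class are transcribed with a pyrimidine-rich start like that of ribosomal protein genes. Their spliced exons carry only short reading frames, so a translating ribosome marks the RNA for nonsense-mediated decay, and inhibitors of translation are known to stabilise it. Gas5 was named for its accumulation in growth-arrested cells. Malat1 and Neat1 stay in the nucleus, Malat1 in nuclear speckles that hold splicing factors and Neat1 as the scaffold of paraspeckles, and neither is a usual substrate of that decay. The microRNA missing from the knockout, miR-223, is abundant in granulocytes and represses messenger RNAs that pair with its seed.

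The mature microRNA and the start sites of the host genes are shown because the genotypes differ in that microRNA and because start-site features are known for this class of host gene. In the RefSeq sequence of miR-223-3p, at chrX:96242884-96242905 on the plus strand of GRCm38.p6, capitals mark the seed, bases 2 to 8. No probe set was named for its gene, so the deletion itself could not be checked.
mmu-miR-223-3p: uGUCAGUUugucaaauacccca
The start sites of 7 of the 9 genes were in the RefSeq promoter table of the same build, with 2 starts for Gas5. Each stretch below runs from 40 bases before the annotated start to 20 bases from it. Capitals mark the letters TATA where they lie within positions -40 to -17, and the longest unbroken run of C or T that begins within positions -5 to 10, where it has at least 6 bases.
Gas5, chr1:161034561-161034620, plus strand: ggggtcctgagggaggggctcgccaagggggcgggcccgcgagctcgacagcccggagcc
Gas5, chr1:161035126-161035185, plus strand: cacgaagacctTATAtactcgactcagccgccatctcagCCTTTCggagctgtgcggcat
Snhg1, chr19:8723447-8723506, plus strand: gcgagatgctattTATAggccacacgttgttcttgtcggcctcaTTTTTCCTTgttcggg
Snhg3, chr4:132353667-132353726, minus strand: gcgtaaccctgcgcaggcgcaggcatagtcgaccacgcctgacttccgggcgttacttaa
Snhg5, chr9:88522878-88522937, minus strand: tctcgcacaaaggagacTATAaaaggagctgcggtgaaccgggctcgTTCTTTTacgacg
Snhg8, chr3:123508317-123508376, minus strand: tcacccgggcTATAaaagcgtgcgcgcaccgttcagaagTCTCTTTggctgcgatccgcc
Snhg12, chr4:132308638-132308697, plus strand: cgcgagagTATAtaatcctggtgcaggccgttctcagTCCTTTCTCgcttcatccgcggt
Malat1, chr19:5802653-5802712, minus strand: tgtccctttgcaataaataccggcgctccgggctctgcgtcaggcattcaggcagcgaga
Of the 7 host gene starts, 5 held TATA in that window (71.4%), against 5.81% of all 32851 start sites in the table. TATA reads the same on both strands. The same 5 starts held a run of at least 6 pyrimidines on the transcript's strand, against 17.6% of all starts. Of 20 starts of protein-coding host genes of small nucleolar RNAs, 0 held TATA and 5 held such a run. Snhg3, Malat1 and the upstream start of Gas5 held neither. These are matches of letters in a window, and no binding was measured.

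All 7 host genes were expressed in these neutrophil cultures, and on the deposited scale they read slightly lower in the knockout. Of their 14 expressed probe sets 11 were lower and 3 higher, where 46.1% of all 19482 expressed probe sets named for 1 gene were lower and 53.6% higher. Their median difference was -0.077, beside 0.015 for all expressed probe sets. No member probe set differed by 2-fold or more, as did 0.0924% of all. Of the 14, 10 lay within the SD between probe sets, a share of 71.4% where 63.0% of all expressed probe sets did, so the size of these differences was unremarkable. The direction depends on the scale: when the arrays were centred on the poly-A spike controls the median was 0.096 with 11 of 14 higher, and on the hybridization controls 0.031 with 9 higher. The median of all expressed probe sets shifted with them, to 0.19 and 0.12. Relative to all probe sets the host genes stood lower on the deposited scale (-0.092). Each spike centring moves every probe set by the same amount, so this gap could not change under them.

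Gas5, whose introns hold several small nucleolar RNAs, was read by 4 expressed probe sets. The brightest, 1419291_x_at, had a wild-type intensity of 3466 and a knockout intensity of 3047. Probe set 1449410_a_at gave 3191 and 2813, in the same order. The dimmer probe sets were closer, 803 and 766 for 1436222_at and 602 in the knockout against 640.0 in the wild type for 1424843_a_at. All 4 read lower in the knockout, by -0.19, -0.18, -0.066 and -0.087, and only the brighter pair passed the SD between probe sets. Both of that pair are of suffix classes that mark sequence shared between transcripts. The only Gas5 probe set outside those classes was 1436222_at, at -0.066. Centred on poly-A controls, the dimmer pair turned to 0.11 and 0.086 and the brighter pair stood at -0.012 and -0.0079.

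Snhg1, a host of several box C/D small nucleolar RNAs, had 5 expressed probe sets. Intensities on the wild-type and knockout arrays were 2893 and 2767 for 1433674_a_at, and 2385 and 2367 for 1439399_a_at. Probe set 1433675_at, built on the same design entry as the first, gave 1876 and 1755. The dimmer ones were nearly equal, 303 and 308 for 1437658_a_at and 232 and 233 for 1454703_x_at. The differences ran from -0.095 to 0.022, 3 lower and 2 higher, and all 5 were within the SD between probe sets. On the scale centred on poly-A controls all 5 read higher, from 0.078 to 0.19, and 3 of them, 1437658_a_at, 1454703_x_at and 1439399_a_at, passed that SD. On that scale 89.1% of all expressed probe sets were higher, with a median of 0.19, so these counts do not set Snhg1 apart.

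The remaining host genes had 1 expressed probe set each, which leaves their sign without a second reading. Snhg6, the host of Snord87, showed the lowest value of the 14, with 1978 in the wild type and 1731 in the knockout (-0.19). The suffix of its probe set marks sequence shared between transcripts. Snhg8, the host of Snora24, stood at 1601.5 and 1422 (-0.17). Snhg3, the host of Snora73a and Snora73b, which take part in cleavage of the ribosomal RNA precursor, gave 433 and 392 (-0.14). Snhg6, Snhg8 and Snhg3 were the lowest of these remaining genes, and Snhg6 and Snhg8 passed the SD between probe sets while Snhg3 did not. The brighter Gas5 pair, at -0.19 and -0.18, read lower than Snhg8. Snhg5, also a host of box C/D RNAs, gave 1402 and 1349.9 (-0.054). On the deposited scale Snhg12 was the only host gene higher on its brightest probe set, at 628 and 644 (0.036). Centred on poly-A controls Snhg3 stood at 0.036, Snhg5 at 0.12 and Snhg8 at 0.0033, while Snhg6 stayed below 0 at -0.018.

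Snhg5 had a further 2 probe sets, both under the expression cut and both built on another design entry. Probe set 1432738_at gave 29.3 and 38.1 (0.25) and 1432737_at gave 13.2 and 12.9 (-0.014). The first crossed the intensity of 33.9 that marks the cut on the knockout array only, and at such signals the pseudocount decides much of the difference (0.13 with a pseudocount of 64). A further 2 probe sets were named for a host gene together with its small nucleolar RNA gene and entered no count. The one shared by Snora24 and Snhg8 gave 4067 and 3502 (-0.21), and the one shared by Snord47 and Gas5 gave 355 and 336 (-0.078). Both were lower in the knockout, as were the single-gene probe sets of Snhg8 and Gas5.

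**Figure D1:**
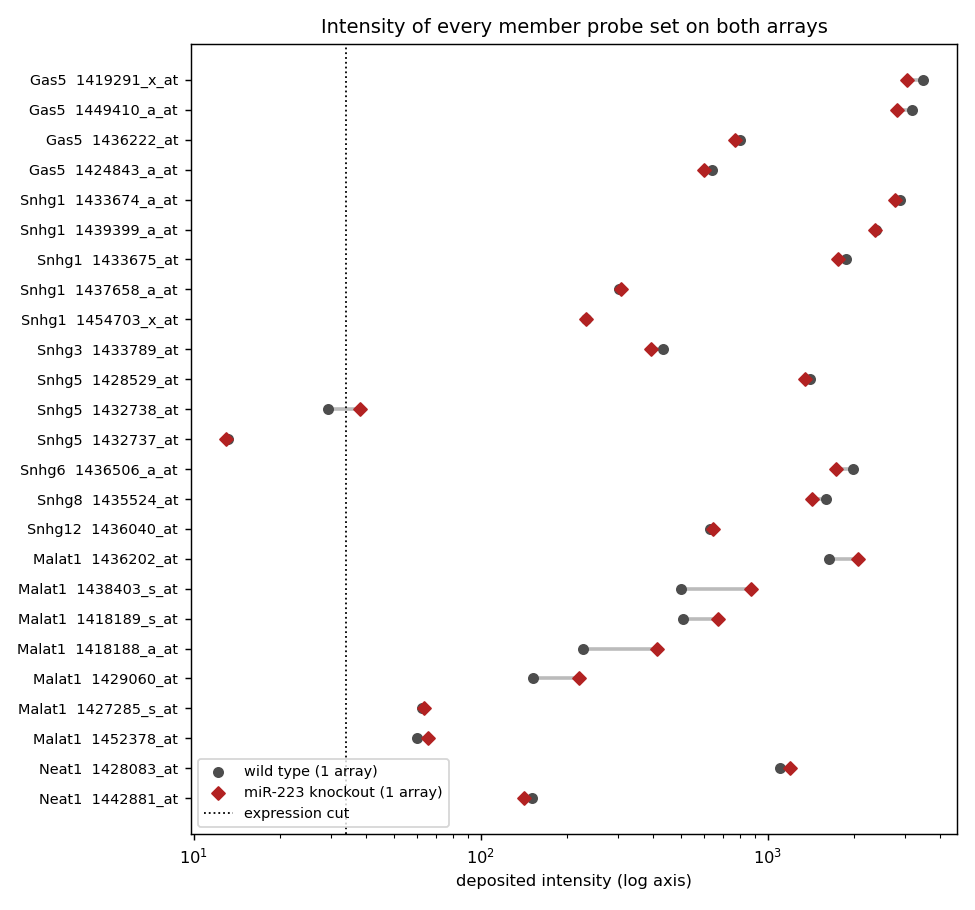
Deposited intensity on a log axis of every member probe set on the wild-type array (grey circle) and the knockout array (red diamond), 1 array each, with the expression cut as a dotted line. The host gene pairs lie close together, mostly with the knockout slightly to the left, and the Malat1 pairs from 1637 and 2069 down to 152 and 219 lie apart with the knockout to the right.

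Malat1 was the member that differed most, and it was higher in the knockout array on all 7 of its probe sets, each of them expressed. The brightest probe set, 1436202_at, gave an intensity of 1637 in the wild type and 2069 in the knockout. Probe set 1438403_s_at gave 499.9 and 875. Probe set 1418189_s_at gave 505 and 669, and 1418188_a_at, built on the same design entry, 227 and 410.4. On the last of these the knockout signal was 1.81 times that of the wild type. Probe set 1429060_at gave 152 and 219. The final pair, which share a design entry, were the dimmest and hardly differed, at 62.5 and 63.5 for 1427285_s_at and 60.2 and 65.3 for 1452378_at. The 5 brighter probe sets thus stood apart between the arrays, and the 2 dimmest did not.

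In log2 terms these 7 values were 0.34, 0.79, 0.39, 0.81, 0.48, 0.018 and 0.094 in that order, with a median of 0.39. Of the 7, 5 reached 0.3 in the higher direction, which 6.77% of all expressed probe sets did, and 2 reached 0.5, which 1.29% did. Within the tenth of expressed probe sets of like signal, 1438403_s_at, 1418188_a_at and 1429060_at lay above the middle 95% of differences, and 1436202_at and 1418189_s_at just inside it, at upper edges of 0.37 and 0.41. No other member probe set lay outside that range for its signal. Of 317 genes with at least 5 expressed probe sets, 66 had every one higher (20.8%), and 5 genes, Malat1 included, had a median at or above that of Malat1. Over the alternatives that kept all 7 probe sets the median ran from 0.36 to 0.57, and all 7 stayed higher under each. A change of pseudocount cannot turn a sign, and both spike centrings raise every probe set, so no higher value could turn under them. Centred on poly-A and on hybridization controls, 89.1% and 79.3% of all expressed probe sets were higher. The 2 largest Malat1 values came from suffix classes that mark sequence shared between transcripts, and the 3 probe sets outside those classes gave 0.34, 0.48 and 0.094. By its brightest probe set 442 of the 11006 expressed genes differed as much or more in that direction. Without replicates it cannot be said whether a repeat of the culture would give this difference.

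Neat1, which lies beside Malat1 on chromosome 19, did not share its difference. Its brighter probe set, 1428083_at, gave 1102 in the wild type and 1193 in the knockout (0.11), and 1442881_at gave 151 and 142 (-0.080). The probe sets pointed opposite ways, both within the SD between probe sets, and the dimmer one turned to 0.093 when centred on poly-A controls. The nearest measured gene on the other side of Malat1, Ltbp3, which binds latent transforming growth factor beta, was dim and higher in the knockout, at 70.0 and 103 (0.47), with its other probe set at 0.20. Frmd8, the gene beyond Neat1, gave 501 and 522 (0.057).

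**Figure D2:**
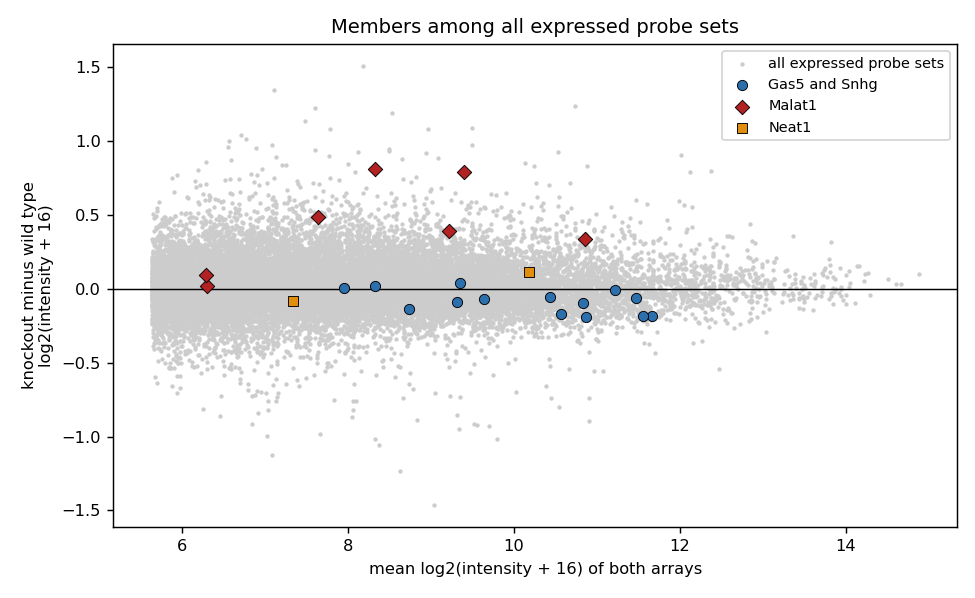
Difference against mean signal for all 19482 expressed probe sets (grey) with the host genes (blue circles), Malat1 (red diamonds) and Neat1 (orange squares), on the log2(intensity + 16) scale as deposited. The host genes sit inside the cloud and mostly below 0. Malat1 reaches 0.79 and 0.81, in the upper part of the cloud, which extends up to 1.51. The side of 0 on which the host genes lie turns with centring on spike controls.

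Beside the members, 6 other genes of the Snhg series were expressed, and on their brightest probe sets all 6 read lower in the knockout, their median being -0.17. Snhg17 gave 106 in the wild type and 84.3 in the knockout (-0.29), Snhg7 gave 165 and 139 (-0.22) and Snhg10 gave 136 and 116 (-0.20). Snhg11 (-0.13), Snhg4 (-0.041) and Snhg16 (-0.00045) were nearer 0. Their other probe sets did not always follow, since Snhg16 had another at 0.35 and Snhg10 ranged up to 0.13, and the median over all 9 expressed probe sets was -0.041. The direction of these genes depended on the scale. It was up for 3 of the 6 when centred on poly-A controls (median 0.0062) and for 2 when centred on hybridization controls (median -0.059). Snhg14 and Snhg18 were under the expression cut. Among all expressed genes, for comparison, 50.1% were lower and 49.7% higher, with a median of -0.00037.

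The proteins that assemble with small nucleolar RNAs were lower as well on the deposited scale. Of 13 expressed genes for these particles 12 were lower and 1, the assembly helicase Ruvbl1, was higher (0.014), with a median of -0.14. The largest differences were in core proteins of the box H/ACA particles, which convert uridine to pseudouridine. Nop10 gave 3850 in the wild type and 2847 in the knockout (-0.43) and Nhp2 gave 5196 and 4030.4 (-0.37), with their other probe sets at -0.29 and -0.23. Gar1 stood at -0.24 and Dkc1 at -0.20, the latter with another probe set at 0.084. Of the box C/D particles, which methylate ribose, Nop58 stood at -0.23, Nop56 at -0.21 and the methyltransferase Fbl at -0.14. Centred on poly-A controls the median of this list was 0.030, and no gene of it reached 0.5.

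Protein-coding hosts of small nucleolar RNAs were mostly lower on the deposited scale, by small amounts. Of 19 expressed genes 14 were lower and 5 higher, where 50.1% of all expressed genes were lower, and the median was -0.042. Counted by probe set, 30 of 48 were lower, or 62.5%, where 46.1% of all expressed probe sets were. Nop56, Dkc1 (-0.20, with another probe set at 0.084) and nucleolin, Ncl (-0.19, with another at 0.099), were the lower end by brightest probe set. Nop56 and Dkc1 are hosts as well as particle proteins and were counted in both lists. Hspa9 stood at -0.0057 on its brightest probe set but at -0.20 as the mean of all of its probe sets. The translation elongation factor gene Eef1b2 was the highest at 0.20. Centred on poly-A controls this median was 0.13.

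Messenger RNAs for factors of the decay pathway that clears the host transcripts differed little, and the activity of the pathway was not measured. Of 13 expressed genes for nonsense-mediated decay factors and the exon junction complex 9 were lower and 4 higher, with a median of -0.029. In either direction 0 reached 0.5, as 1.72% of all expressed genes did, and with so small a share 0 of 13 is unremarkable. Upf1, the central helicase of the pathway, gave 222 and 205 (-0.11), and Nbas (-0.21), Pnrc2 (0.20) and the exon junction protein Rbm8a (-0.15) had the largest differences. Pnrc2 had another probe set at -0.20 and Rbm8a another at 0.23. The median of these factors was 0.14 when centred on poly-A controls. Messenger RNAs known as natural targets of the same decay had 7 higher and 4 lower of 11 and a median of 0.050. They included Chac1 (0.34), Odc1, the first enzyme of polyamine synthesis (-0.34), and the stress genes Gadd45a (0.28) and Gadd45b (0.26, with probe sets down to -0.082). The median of these messenger RNAs was 0.22 when centred on poly-A controls, and on hybridization controls 0.16.

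Proteins of the nuclear bodies in which Malat1 and Neat1 reside showed no common direction. Of 14 expressed genes as many were higher as lower, 7 each, and the median of 0.0020 ran from -0.017 to 0.18 over the alternatives, the highest being that centred on poly-A controls. Counted by probe set, 40 were higher and 24 lower, or 62.5% higher where 53.6% of all expressed probe sets were. Pspc1, a paraspeckle protein, stood at -0.32 and Tardbp at -0.16, with probe sets of Tardbp up to 0.081. The speckle splicing factor Srsf2 stood at 0.13. Nudt21, a factor of cleavage at the 3' end, had probe sets from -0.54 to 0.078 (-0.11 on the brightest). Every expressed probe set of Son (up to 0.38), Srsf1, Srsf2 and Hnrnpk was higher. Every one of Pspc1, Matr3 (down to -0.27) and Srrm2 was lower. Of 15 other expressed noncoding genes, in which the 6 Snhg genes are counted, 12 were lower and 3 higher, and the median was -0.062 (0.11 centred on poly-A controls). Dleu2, the host of miR-15a and miR-16-1, was the highest at 0.60, with probe sets down to -0.043. Kcnq1ot1, an imprinted antisense RNA, was the lowest at -0.43 and Mir22hg stood at 0.36.

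**Figure D3:**
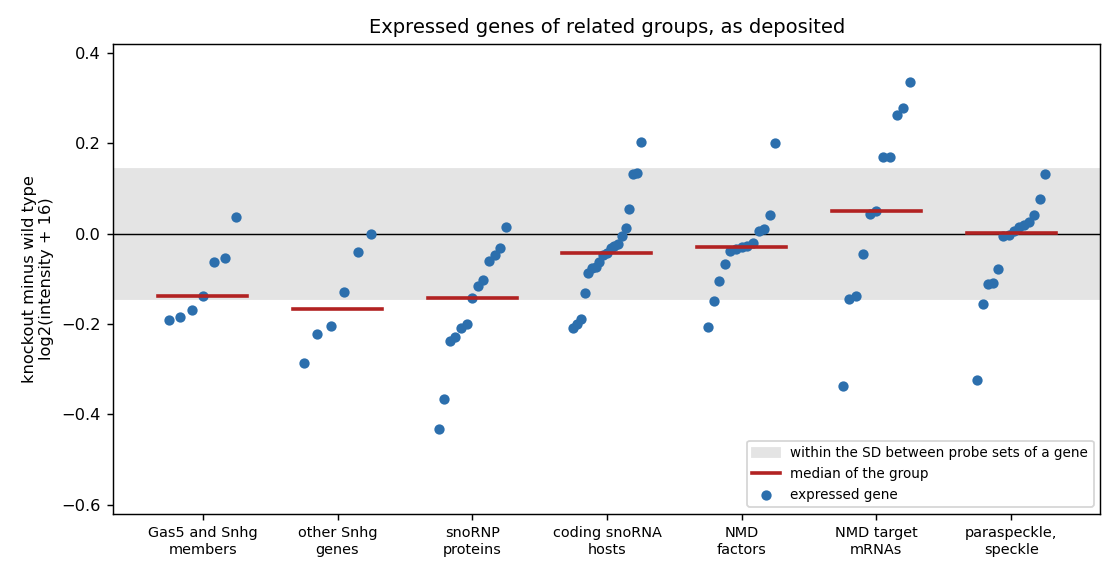
Difference of every expressed gene on its brightest probe set, knockout minus wild type of log2(intensity + 16), for the host gene members and related groups, with the group median as a red line and the grey band as the SD between probe sets of a gene. The host genes, the other Snhg genes and the particle proteins have medians of -0.14, -0.17 and -0.14, and the medians of the other groups run from -0.042 to 0.050; centred on poly-A controls the medians of the particle proteins, the other Snhg genes and the host gene probe sets are above 0.

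Genes next to the members on the chromosomes varied in direction. Rcc1, the neighbour of Snhg3 and a regulator of nuclear transport, gave 632 in the wild type and 499 in the knockout (-0.33), and Phactr4 on the other side stood at -0.12. Wdr74 (-0.16) and the amino acid transporter subunit Slc3a2 (-0.075) flank Snhg1, and both were lower. Syncrip (0.11) and Zfp949 (0.17) beside Snhg5 and Sgk3 (0.16) beside Snhg6 were higher. Trnau1ap next to Snhg12 stood at -0.027, with its other probe set at -0.29. Cenpl near Gas5 stood at -0.011 and Prss12 near Snhg8 at 0.013. Zbtb37, which overlaps Gas5, and Tcf24, Ndst3 and Rab42 were under the expression cut.

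All 14 measured marker genes of the neutrophil lineage were expressed, as were 11006 of all 18193 genes measured. All measured mast cell, basophil and megakaryocyte markers were expressed too, so this count does not identify the lineage. Of the 14, 13 were higher in the knockout array (median 0.15), where 49.7% of all expressed genes were, and Camp was lower (-0.29). Intensities of the 14 summed to 180830 in the wild type and 192808 in the knockout. Markers of other cells moved with genotype. All 9 measured mast cell and basophil markers were lower on their brightest probe sets, with intensities summing to 6666 in the wild type and 4644 in the knockout, and 7 of 8 megakaryocyte markers were lower (2118 and 1362). Kit was close to 0 (-0.047, with another probe set at 0.18), and the platelet integrin Itgb3 went the other way, at 71.1 and 205 (1.34). Of 8 expressed monocyte and macrophage markers 6 were higher, led by Apoe (1.51), while the monocyte receptor Cx3cr1 was lower (-0.60), with sums of 4783 and 5466 over 11 measured genes, of which Mrc1, C1qa and C1qc were under the expression cut on both arrays. For the next groups the sums also take in measured genes under the cut. They were 1233 and 1006 over 6 eosinophil genes, 1806 and 2516 over 8 lymphoid genes, and 169 and 173 over 4 erythroid genes. Of 4 expressed eosinophil markers 3 were lower, of 4 lymphoid ones 3 were higher, and of 2 erythroid ones 1 was higher. The exceptions were large, Siglecf at 0.92 among the eosinophil and Cd3d at -0.81 among the lymphoid markers. The eosinophil median of -0.53 turned to 0.098 with an expression filter at the 75th percentile, and the lymphoid median of 0.45 to -0.00050 with no filter. Proliferation genes had 8 lower and 3 higher of 11 and a median of -0.057 (0.12 centred on poly-A controls). No marker was listed at 0. In RNA from a whole culture, fewer cells of a type and less RNA per cell cannot be told apart. The part of these markers in the values of Malat1 and the host genes was not tested.

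Array controls bear on the small differences. All 24 poly-A spike probe sets were lower on the knockout array, with a median of -0.17, and so were 17 of 18 hybridization spike probe sets, with a median of -0.11. The log2 signal of the 3' minus the 5' probe set was 0.33 in the wild type and 0.25 in the knockout for beta-actin, and 0.15 and 0.062 for Gapdh. The part of these differences in the Malat1 values was not tested, and the poly-A median was close in size to the lowest host gene value, -0.19.

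**Figure D4:**
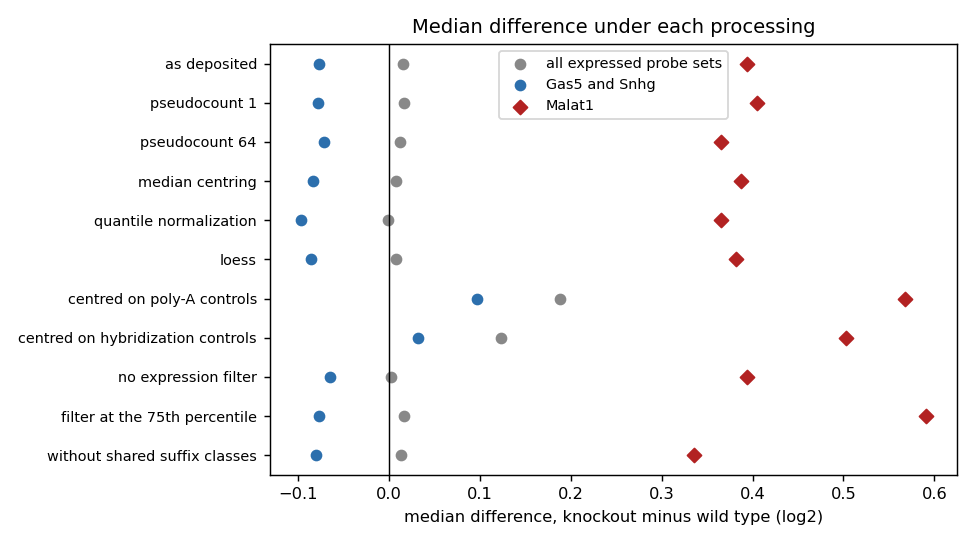
Median difference of all expressed probe sets (grey), the host genes (blue) and Malat1 (red diamonds) under each processing, in log2 units, knockout minus wild type. Malat1 stays between 0.34 and 0.59, and the host genes stay to the left of all expressed probe sets but cross 0 under both spike centrings. Centring on the median or on spike controls moves every group by the same amount, so the gaps between groups cannot change there.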

How the data were processed

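Cultured neutrophils were profiled on 2 arrays, 1 for wild-type and 1 for miR-223 knockout cells, as the genotype labels give them. Per the labels' protocols, Trizol RNA was turned into biotinylated cRNA by means of Affymetrix 3' IVT Express reagents, so mainly 3' ends are read. Each probe set has 1 linear intensity an array as deposited. How the authors corrected background, summarized and normalized: not given in the sources used here. If the arrays were scaled together, a global difference in RNA content would not be seen.

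Of 45101 probe sets 64 were array controls. Of the other 45037, the annotation gave 34945 a single gene, 932 more than 1 and 9160 no gene, and only the first kind entered gene values. Entrez identifiers of 34741 matched RefSeq genes of GRCm38.p6, whose symbols were used, and all 9 member symbols matched. Intensities were used as log2(intensity + 16). Expressed means a mean log2 value at or above 5.64. A gene took its brightest probe set. Differences of 1 or 0.5 were counted. No test was run. Members and lists were chosen with earlier results of these data known. Named were all members, all other Snhg genes, up to 4 expressed genes of each related list with the largest differences and the nearest measured neighbours. Fbl, Ruvbl1, Hspa9, Camp, Kit, Siglecf, Cd3d, Cx3cr1, Mrc1, C1qa, C1qc, Son, Srsf1, Hnrnpk, Matr3 and Srrm2 were named after their values were seen. Alternatives were pseudocounts of 1 and 64, centring on the median or on spike controls, quantile normalization, loess with a span of 0.3, other expression filters, leaving out shared suffix classes, and averaging the probe sets of a gene. The procedure was tested only on simulated data with planted differences larger than any member difference, which does not bear on the member values. Python 3.11.15 with pandas 2.3.3 and statsmodels 0.14.6 was used.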

Additional observations from a re-analysis of the deposited data

How the results depend on the processing

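With pseudocounts of 1 and 64, loess, quantile normalization, median centring and no expression filter, the medians of the host genes and of Malat1 kept their direction and moved by less than the SD between probe sets of a gene. Centred on poly-A controls, 20 member probe sets were higher and 3 lower, and the medians were 0.096 for the host genes, 0.51 for Malat1 with Neat1 and 0.57 for Malat1. All 25 member probe sets moved by the same amount there, and 10 changed sign, while 89.1% of all expressed probe sets were higher. Centred on hybridization controls, 18 were higher and 5 lower, and 8 changed sign, while 79.3% of all expressed probe sets were higher. Quantile normalization turned 2, and median centring and loess 1 each. These counts include small values near 0, and the shift follows from the construction of the centring. A filter at the 75th percentile left 4 Malat1 probe sets with a median of 0.59, since it took out the dimmer ones. Without shared suffix classes fewer probe sets remained, 5 higher and 6 lower, and the median of Malat1 with Neat1 was 0.11. With the probe sets of a gene averaged, the value of Snhg5 turned from -0.054 to 0.062 and that of Neat1 went from 0.11 to 0.016. At a threshold of 0.5 in place of 1, 2 member probe sets passed, both of Malat1. No paired analysis was possible because each genotype has 1 array. Having 1 array per genotype limits precision throughout, and for the dimmest probe sets so does signal over background.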
